A study of Homo sapiens with 4 samples.

Results

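The Notch receptors NOTCH1 to NOTCH4, the Notch ligands DLL1, DLL3, DLL4, JAG1 and JAG2, and the target gene HES1 were followed in H9 cells, an established line of human embryonic stem cells. These 10 genes were picked by their symbols from the 60671 genes of the deposited table, and each of them had 1 row there. The table held 4 poly(A)+ RNA libraries in 2 groups of 2. One group was labelled control. The study sets its re-expressing cells against mock cells, and its mock controls were clones that received the empty editing vector. It also lists plain H9 cells as a control, and the labels do not say which of these the control libraries were. The other group, called KO+OE here, carried a CRISPR-Cas9 edit of the gene for CFIm25 (NUDT21) together with a lentiviral 3Flag-CFIm25 under an EF1 promoter. CFIm25 belongs to cleavage factor I, a complex of the mRNA 3' processing machinery that takes part in the choice of poly(A) site. The labels call the edit KO, and in one place KD, while the study describes mutant cells grown from a single-cell clone that kept a shortened protein at a low level, so KO+OE stands for 1 edited line that had regained the protein. The study kept H9 cells in mTeSR medium. It describes selection of edited cultures on puromycin before clones were picked. Whether the control libraries came from cells selected in the same way is not stated. Edited cells without the lentiviral gene were not analysed here, so the comparison asks how far the Notch genes of the re-expressing cells stood from those of control cells. Nothing in the labels says that the 2 libraries of a group came from separate cultures, and p-values then measure only the spread between these libraries, which may be technical.

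Notch signalling passes between touching cells. A receptor that meets a Delta-like (DLL) or Jagged (JAG) ligand on a neighbouring cell is cut by an ADAM protease and then by gamma-secretase, and the freed intracellular part enters the nucleus, where it joins the DNA-binding protein RBPJ and a Mastermind-like (MAML) coactivator and turns on genes such as HES1. HES1 is a basic helix-loop-helix (bHLH) repressor that binds N-box sequences, including those before its own start, and holds back bHLH activators of neuronal differentiation. DLL3 is a divergent ligand that does not activate receptors on neighbouring cells.

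Sequence features tied to this route were looked for before the starts of the genes. RefSeq (GRCh38.p14) windows of 250 bases before the annotated start were searched on both strands for 3 motifs. These were the RBPJ core GTGGGAA, which reads as TTCCCAC on the other strand, its variant GTGTGAA, which reads as TTCACAC there, and the N-box CACNAG. Windows were found for 8 of the 10 genes and for 9 of 10 further HES and HEY genes and NRARP. DLL1, DLL3 and HEY1 had none in the table. The windows of HES1, HES4 and HES5 are shown since they held 2 RBPJ motifs each, with the RBPJ core and its variant in capitals. They lie at chr3:194135898-194136147 (plus strand), chr1:1000098-1000347 (minus strand) and chr1:2530264-2530513 (minus strand).
HES1: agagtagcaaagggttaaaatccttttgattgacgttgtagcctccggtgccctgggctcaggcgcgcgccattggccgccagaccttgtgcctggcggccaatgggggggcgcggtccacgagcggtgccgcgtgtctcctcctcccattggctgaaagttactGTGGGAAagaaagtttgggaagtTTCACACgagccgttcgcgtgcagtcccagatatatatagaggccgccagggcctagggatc
HES4: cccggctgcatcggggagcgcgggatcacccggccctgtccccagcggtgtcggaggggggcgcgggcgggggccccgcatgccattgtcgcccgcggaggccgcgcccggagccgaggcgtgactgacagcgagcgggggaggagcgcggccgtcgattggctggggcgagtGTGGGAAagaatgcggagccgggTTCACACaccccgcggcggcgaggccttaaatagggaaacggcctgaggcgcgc
HES5: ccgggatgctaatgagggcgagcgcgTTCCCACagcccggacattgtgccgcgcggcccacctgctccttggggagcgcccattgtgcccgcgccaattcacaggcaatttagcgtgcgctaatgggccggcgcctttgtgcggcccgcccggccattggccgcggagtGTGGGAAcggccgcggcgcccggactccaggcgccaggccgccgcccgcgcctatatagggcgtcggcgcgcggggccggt
Counting back from -1 at the last base before the start, the HES1 window held the RBPJ core from -85 to -79 and the variant, on the opposite strand, from -62 to -56. HES4 held the same pair from -77 to -71 and from -54 to -48. In both genes 16 bases lay between the matches. HES5 held the core once on each strand, from -224 to -218 and from -81 to -75. Among all 35116 windows of 27305 genes, 5.43% held the core, 2.48% the variant and 0.188% both. Of the 8 windows of the receptors, ligands and HES1, only that of HES1 held the core or the variant. HES1 also held 3 N-boxes, starting at -165, -132 and -58, the last of which overlaps the variant motif. N-boxes were common, occurring in 32% of all windows, and NOTCH3 and NOTCH4 held 1 each. A match is a run of letters, not evidence of binding.

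**Figure D1:**
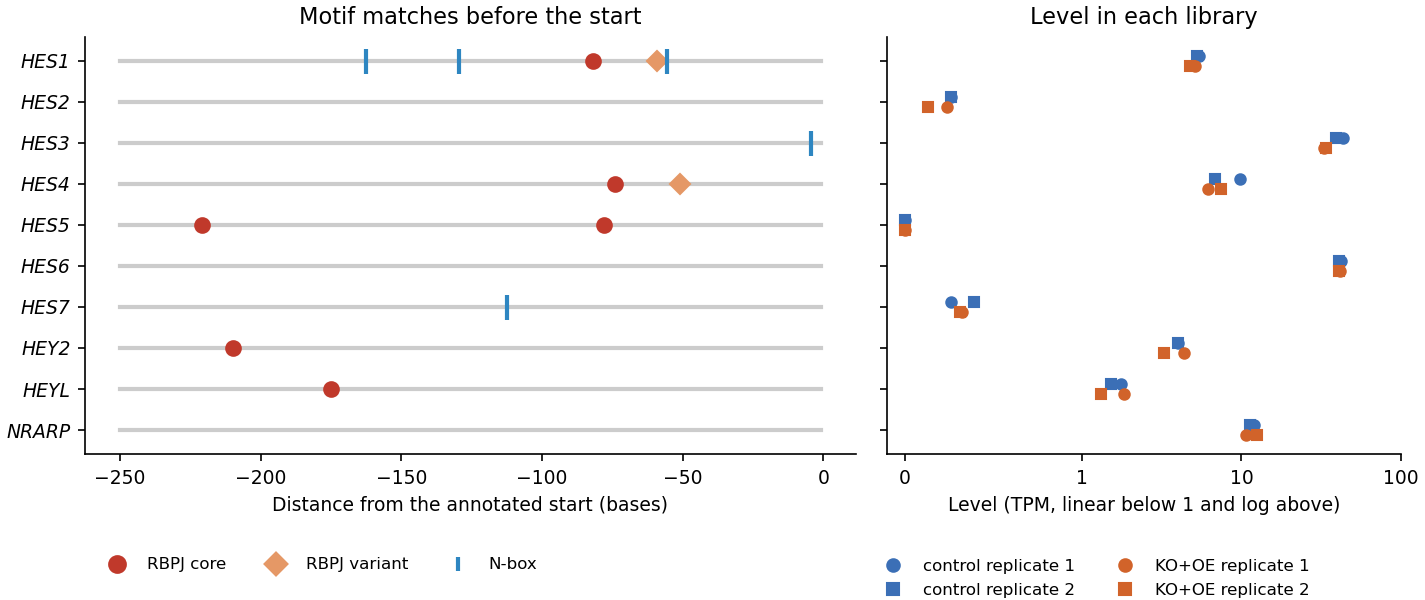
Matches to 3 motifs in the 250 bases before the annotated start (left, distance in bases) and the level of the same genes in each library (right, TPM on an axis that is linear below 1 and logarithmic above) for HES1 and 9 related genes. HES1 and HES4 share a spaced pair of RBPJ motifs. HES5, with 2 core motifs, was listed at 0 TPM in all 4 libraries, while the other motif holders, HES1, HES4, HEY2 and HEYL, measured 1.32 to 9.84 TPM. Of the genes with no RBPJ motif, HES3 and HES6 stood highest and HES2 and HES7 stayed at or below 0.39 TPM.

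Levels are given in TPM (a length-corrected share of all transcripts), so genes may be set beside each other. In bulk RNA, fewer cells that express a gene and less RNA per cell cannot be told apart. The cells carried the markers of their label. All 8 embryonic stem cell markers examined stood at or above 15.85 TPM, the lowest value of NANOG, with summed levels of 3281 to 3315 TPM, and POU5F1 alone stood between 2163.82 and 2212.38 TPM. Of the 5 mesoderm markers none reached 1 TPM in any library. Of the 5 endoderm markers only GATA6 did, with SOX17 at 0. Among neural progenitor markers NES measured 79.59 to 82.77 TPM, above the stem cell markers SOX2 and NANOG. PAX6, SOX1 and NEUROG2 were below 1 TPM in every library. Summed levels of the endothelial list (10.95 to 11.45 TPM, mostly KDR) and of the fibroblast list (67.2 to 68.8 TPM, mostly COL1A1, with LUM at 0) varied little between libraries. Their part in the Notch values was not tested. NUDT21, the edited gene, measured 160.67 and 152.20 TPM in control cells and 162.09 and 156.60 TPM in KO+OE cells, and the groups overlapped (log2 difference 0.03, 95% confidence interval -0.09 to 0.14). The deposited value does not separate the RNA of the edited gene from that of the lentiviral copy and so checks neither.

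In these cells 1 ligand and 2 receptors held most of the Notch RNA. The 10 genes spanned from DLL3, at 47.75 to 51.83 TPM, down to DLL4, at 0.07 to 0.21 TPM. By mean level the order was DLL3, NOTCH3, NOTCH1, HES1, NOTCH2, JAG1, JAG2, DLL1, NOTCH4 and DLL4. DLL3 exceeded NOTCH3 by 2.02 to 2.25 times, NOTCH3 exceeded NOTCH1 by 1.68 to 1.75 times and NOTCH1 exceeded HES1 by 2.60 to 2.86 times within each library. The levels of HES1 and NOTCH2, of NOTCH2 and JAG1, and of JAG2 and DLL1 overlapped over the libraries. HES1 was above NOTCH2 and NOTCH2 above JAG1 in each of the 4 libraries, while JAG2 was above DLL1 in 3 of them, with ratios of 0.826 to 1.76.

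**Figure D2:**
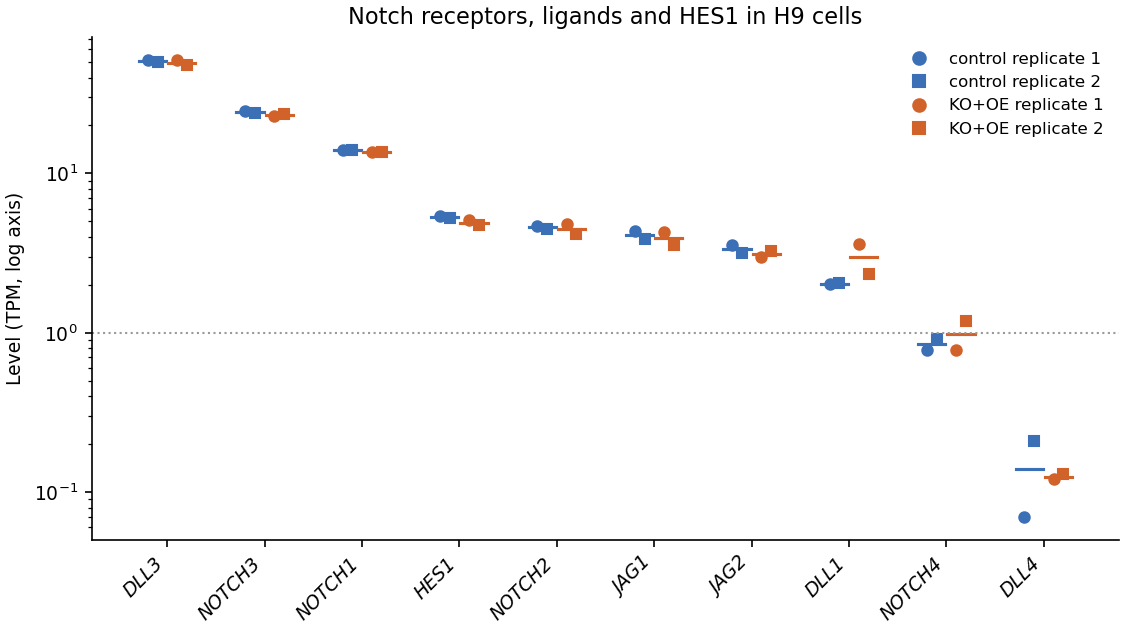
Level of each receptor, ligand and HES1 in the 4 libraries (TPM, log axis; points are libraries, short lines are group means, the dotted line marks 1 TPM, the filter on the mean level). The order from DLL3 to DLL4 held in each library except between JAG2 and DLL1, and DLL1 is the gene whose 2 KO+OE points lie farthest apart among those tested.

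Among the receptors, NOTCH3 carried 54.4% to 55.8% of the summed receptor TPM and NOTCH1 31.8% to 32.5%. NOTCH2 carried 9.7% to 11.5% and NOTCH4 1.8% to 2.8%. The sum itself was 44.25 and 43.32 TPM in control cells and 42.0 and 42.49 TPM in KO+OE cells.

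NOTCH3 (ENSG00000074181, chr19:15159038-15200995) measured 24.68 and 23.85 TPM in control cells and 22.83 and 23.59 TPM in KO+OE cells. Both KO+OE libraries were below both control libraries, by a margin narrower than the gap within either group (24.3 ± 0.587 against 23.2 ± 0.537, mean ± SD, n = 2). The log2 difference was -0.06 (interval -0.22 to 0.10, limma, adjusted p = 0.960). After rescaling of the libraries by median ratios, or to the total without mitochondrially encoded genes, the groups overlapped.

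NOTCH1 (ENSG00000148400, chr9:136494433-136546048) gave nearly identical replicates, 14.08 and 14.06 TPM in control cells and 13.55 and 13.57 TPM in KO+OE cells. The groups did not overlap, and KO+OE was the lower. The log2 difference was -0.05 (interval -0.23 to 0.13, limma, adjusted p = 0.974), where limma judges the gap against the spread of genes of like level and not against these 4 values alone. Replicates of genes between 5 and 50 TPM typically differed by 0.102 in control and 0.101 in KO+OE cells (median absolute log2 difference), against 0.002 in each group for NOTCH1.

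NOTCH2 (ENSG00000134250, chr1:119911553-120069662) measured 4.71 and 4.50 TPM in control cells and 4.84 and 4.14 TPM in KO+OE cells, so that the KO+OE libraries lay on either side of the controls. The log2 difference was -0.03 (interval -0.36 to 0.29, limma, adjusted p = 0.990). NOTCH2 has near-identical partial copies in the human genome whose reads may be assigned to one another, so its level is uncertain. Of these copies, NOTCH2NLA measured 3.25 and 3.36 TPM in control and 3.09 and 3.47 TPM in KO+OE cells. NOTCH2NLC measured 0.63 and 0.86 against 1.67 and 1.30 TPM, higher in both KO+OE libraries (log2 difference 0.51, unadjusted p = 0.0498 and adjusted p = 0.931 by limma). NOTCH2NLC reached the filter of a mean of 1 TPM only through KO+OE, so that its being tested depended on the difference itself, and without the filter its unadjusted p was 0.0515. NOTCH2NLR went the other way, with 1.08 and 0.99 against 0.62 and 0.35 TPM, and was under the filter, while NOTCH2NLB was listed at 0 in every library. How reads were divided among the copies was not tested.

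NOTCH4 (ENSG00000204301, chr6:32194843-32224067), known best from endothelial cells, measured 0.78 and 0.91 TPM in control cells and 0.78 and 1.19 TPM in KO+OE cells. Its mean was under 1 TPM and it was not tested. It overlaps GPSM3 on the same strand in the annotation. GPSM3 stood at 7.64 and 10.86 TPM in control and 10.07 and 11.18 TPM in KO+OE cells, well above NOTCH4, and reads of the shared stretch could belong to either.

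Among the ligands, DLL3 carried 82.3% to 84.3% of the summed TPM in every library. DLL3 (ENSG00000090932, chr19:39498947-39508469) measured 51.83 and 49.74 TPM in control cells and 51.30 and 47.75 TPM in KO+OE cells, a level above 84.0% of the 12319 genes tested. The groups overlapped (50.8 ± 1.48 against 49.5 ± 2.51 TPM, mean ± SD, n = 2), with a log2 difference of -0.04 (interval -0.19 to 0.11, limma, adjusted p = 0.980). The 3 genes with levels nearest to DLL3 over the 4 libraries, by Euclidean distance of log2(TPM + 1), were HSPD1 (0.0425), a mitochondrial chaperonin, FSD1 (0.0528) and HDAC1 (0.0538), a histone deacetylase. HDAC1 also stands in the corepressor list below.

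DLL1 was the gene with the widest difference of the 8 tested. DLL1 (ENSG00000198719, chr6:170282206-170291078), a ligand that activates receptors on neighbouring cells, measured 2.01 and 2.04 TPM in control cells and 3.62 and 2.34 TPM in KO+OE cells. Both KO+OE libraries were above both controls, and most of the gap came from KO+OE replicate 1. The log2 difference was 0.38 with an interval of -0.14 to 0.90 (limma, unadjusted p = 0.122, adjusted p = 0.932). Leaving out KO+OE replicate 1 gave 0.14, and leaving out KO+OE replicate 2 gave 0.61 with an unadjusted p of 0.0288 and an adjusted p of 0.916, each from a fit in which the lone KO+OE library was assumed to vary like the controls. The 2 control libraries differed by 0.014 on the log2 scale and the 2 KO+OE libraries by 0.468, against medians of 0.189 and 0.182 for genes between 1 and 5 TPM. DLL1 overlaps FAM120B on the opposite strand, which measured 2.28 and 2.15 TPM in control and 2.47 and 2.31 TPM in KO+OE cells. Whether the reads were counted by strand is not given in the sources used here.

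The Jagged ligands stood far below DLL3. JAG1 (ENSG00000101384, chr20:10637684-10673999) measured 4.33 and 3.86 TPM in control cells and 4.27 and 3.58 TPM in KO+OE cells, with overlapping groups (log2 difference -0.05, interval -0.41 to 0.31). JAG2 (ENSG00000184916, chr14:105140995-105168776) measured 3.54 and 3.16 TPM in control cells and 2.99 and 3.24 TPM in KO+OE cells, also overlapping (log2 difference -0.08, interval -0.43 to 0.27). Their adjusted p was 0.989 and 0.982 by limma. DLL4 (ENSG00000128917, chr15:40929340-40939073), a ligand of sprouting endothelium, was at 0.07 and 0.21 TPM in control cells and at 0.12 and 0.13 TPM in KO+OE cells, too low to test. Its share of the summed ligand TPM was at most 0.4%.

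HES1 (ENSG00000114315, chr3:194136148-194138732) measured 5.41 and 5.23 TPM in control cells and 5.08 and 4.74 TPM in KO+OE cells. Both KO+OE libraries were below both controls, by a margin narrower than the gap within either group (5.32 ± 0.127 against 4.91 ± 0.240 TPM, mean ± SD, n = 2). The log2 difference of -0.10 had an interval of -0.38 to 0.19 and did not pass the test (limma, adjusted p = 0.962). Its mean level was above that of 40.5% of the genes tested.

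None of the 8 genes that could be tested passed limma's threshold, 0 at an adjusted p under 0.05 and 0 at an unadjusted p under 0.05. Over all 12319 genes tested, 1 gene (0.00812%) passed the adjusted threshold and 656 (5.33%) the unadjusted one. That 1 gene, AC125388.1, had values of 0 in the controls and is named after its values were seen. DLL1 was higher in both KO+OE libraries than in both controls, as were 14.5% of all genes tested, and NOTCH1, NOTCH3 and HES1 were lower, as were 19.6%. Counting shows 1 positive and 7 negative log2 differences, with a median of -0.05, against a median of -0.01 and 45.5% positive differences over all genes tested. Without control replicate 1 the median of the 8 was -0.01, and without KO+OE replicate 2 it was -0.02. With 2 libraries against 2, a count of separated genes is a description. The intervals show what could have been missed. Each of the 8 lay within a difference of 1 either way on the log2(TPM + 1) scale. That scale understates changes of low genes, so a 2-fold rise of DLL1 in TPM was not excluded.

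**Figure D3:**
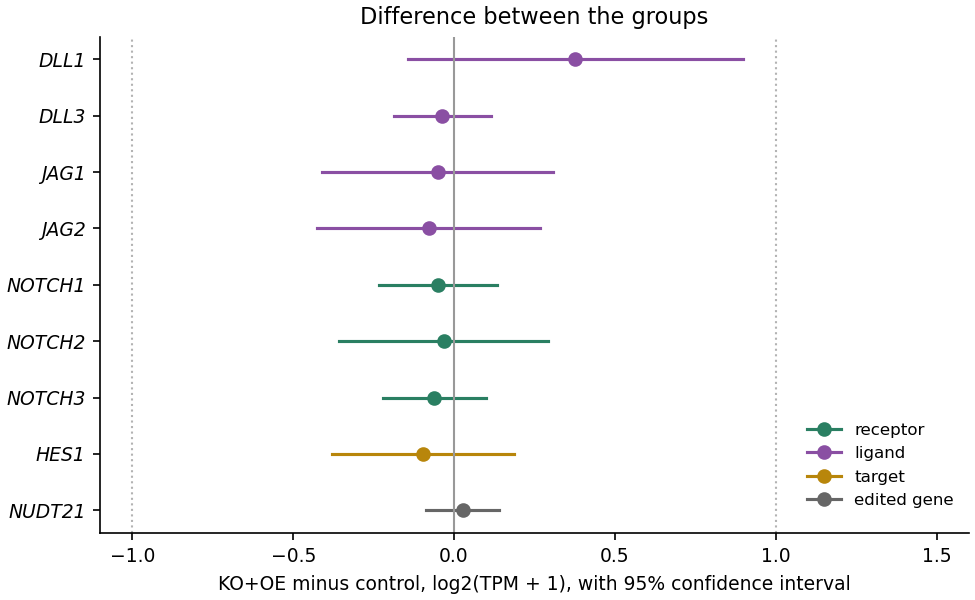
KO+OE minus control on the log2(TPM + 1) scale for the 8 genes tested and for NUDT21, with limma's 95% confidence interval, coloured by role. Dotted lines mark a difference of 1 either way, which is 2-fold in TPM + 1. Every interval crosses 0, and that of DLL1, -0.14 to 0.90, is the widest.

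The rest of the pathway was read from 9 lists of 81 genes by textbook role, of which 80 were in the table and 58 were tested. None passed an adjusted p under 0.05 and 4 passed an unadjusted p under 0.05 by limma, MAML2 and NOTCH2NLC upward and HES3 and ID1 downward, against 5.33% of all genes tested. Both upward genes passed the filter on the mean level only through KO+OE, where they were high, so their direction was favoured by the filter. Of the 58, 23 differences were positive and 35 negative, with a median of -0.01. Without overlap between the groups, 7 genes were higher and 11 lower in KO+OE, where 14.5% and 19.6% of all genes tested were.

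Upstream of the receptor cut, no gene passed either threshold. Of the receptor-modifying enzymes, 6 of 7 were tested, with a median log2 difference of -0.03. FURIN, the convertase that matures the receptors, measured 30.72 and 30.93 TPM in control and 29.26 and 28.72 TPM in KO+OE cells. RFNG, a Fringe sugar transferase that tunes ligand choice, measured 28.57 and 26.16 against 25.89 and 30.34 TPM. Of the genes for ligand endocytosis and non-canonical ligands, 4 of 7 were tested (median -0.04). Here MIB2, a ubiquitin ligase acting on ligands, measured 33.88 and 29.42 against 35.39 and 31.97 TPM, and NEURL1, another such ligase, 4.43 and 4.59 against 4.62 and 3.40 TPM.

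The cutting machinery was above the filter throughout, though the ADAM proteases stood low. All 8 genes for the ADAM proteases and gamma-secretase were tested, and all 8 overlapped between the groups (median -0.03). APH1A, a gamma-secretase subunit, measured 101.34 and 103.75 TPM in control and 101.45 and 97.04 TPM in KO+OE cells. NCSTN, the subunit that receives substrates, measured 33.42 and 35.50 against 34.27 and 33.21 TPM. Of the genes for receptor trafficking and turnover, 9 of 12 were tested, with a median of 0.04. Of these, 3 were higher and 2 lower without overlap, against 14.5% and 19.6% of all genes tested. The Deltex family genes DTX3 and DTX2, both for ubiquitin ligases, measured 24.24 and 20.96 against 22.79 and 23.80 TPM, and 22.41 and 20.41 against 23.01 and 23.84 TPM.

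In the nuclear complex the coactivator MAML2 stood apart. MAML2 measured 0.03 and 0.15 TPM in control cells and 1.10 and 4.72 TPM in KO+OE cells, and the 2 KO+OE libraries differed by more than the lower of them differed from the controls. The log2 difference of 1.67 had an interval of 0.40 to 2.94 (limma, unadjusted p = 0.0196, adjusted p = 0.928). MAML2 passed the filter on the mean level only through KO+OE, so a difference was built into its being tested. Without the filter its unadjusted p was 0.0382 and its adjusted p 0.873. Leaving out KO+OE replicate 1 gave 2.39 and leaving out KO+OE replicate 2 gave 0.95, while it was 3.74 or 0.60 with a pseudocount of 0.1 or 5. Its adjusted p ranged from 0.318 to 0.953 over the alternatives. MAML1, the main expressed family member, measured 9.45 and 9.46 against 11.55 and 9.52 TPM. KAT2A, a histone acetyltransferase, measured 14.68 and 14.04 against 16.49 and 16.16 TPM (log2 difference 0.17, limma, unadjusted p = 0.0605). Over the 7 of 9 coactivator genes tested the median was 0.06. The 13 corepressor genes were all tested and had a median of -0.01. Their most abundant members were TLE5, at 239.10 and 248.64 against 237.20 and 245.62 TPM, and CTBP1, at 83.72 and 89.38 against 81.61 and 92.93 TPM.

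Among the other genes of the HES and HEY families and NRARP, 6 of 10 were tested. Whether these genes answered to Notch in these cells was not tested. All 6 differences were negative as deposited, with a median of -0.05, where 45.5% of all genes tested were positive. After rescaling, 1 of the 6 was positive by median ratios or without mitochondrially encoded genes and 2 by quantile normalization. HES3, a HES-family repressor, had the lowest unadjusted p of the 58 genes. It measured 43.05 and 39.34 TPM in control and 33.04 and 33.66 TPM in KO+OE cells, without overlap, for a log2 difference of -0.30 (interval -0.46 to -0.13, limma, unadjusted p = 0.00599, adjusted p = 0.925). HES6, a relative that opposes HES1, measured 42.28 and 40.79 against 41.21 and 40.95 TPM. Neither held an RBPJ motif in its window. HES4, with the same motif pair as HES1, measured 9.84 and 6.83 against 6.18 and 7.45 TPM, and HES5, with 2 core motifs, was listed at 0 in all 4 libraries. The remaining members, named since they hold the motif or feed back on the pathway, were HEY2 (3.26 to 4.35 TPM), HEYL (1.32 to 1.83 TPM) and NRARP (10.66 to 12.57 TPM).

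The bHLH activators reported here, of the class that HES1 opposes, were nearly silent. ATOH1, NEUROG1, NEUROG2, NEUROG3 and NEUROD1 were at or below 0.19 TPM in every library. The ID genes encode proteins that tie up bHLH partners and are known targets of BMP signalling. Of the ID genes, ID1 and ID3 were abundant and ID2 and ID4 were not. ID2 measured 2.21 and 3.06 TPM in control and 2.99 and 2.01 TPM in KO+OE cells. ID4 measured 0.35 and 0.31 against 0.15 and 0.15 TPM and was under the filter. ID1 measured 141.04 and 143.63 TPM in control and 128.27 and 130.88 TPM in KO+OE cells, lower in both KO+OE libraries (log2 difference -0.13, interval -0.23 to -0.04, limma, unadjusted p = 0.0139, adjusted p = 0.928). ID3 measured 108.76 and 108.94 against 100.77 and 102.91 TPM, also lower without overlap (log2 difference -0.10, limma, unadjusted p = 0.0530).

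**Figure D4:**
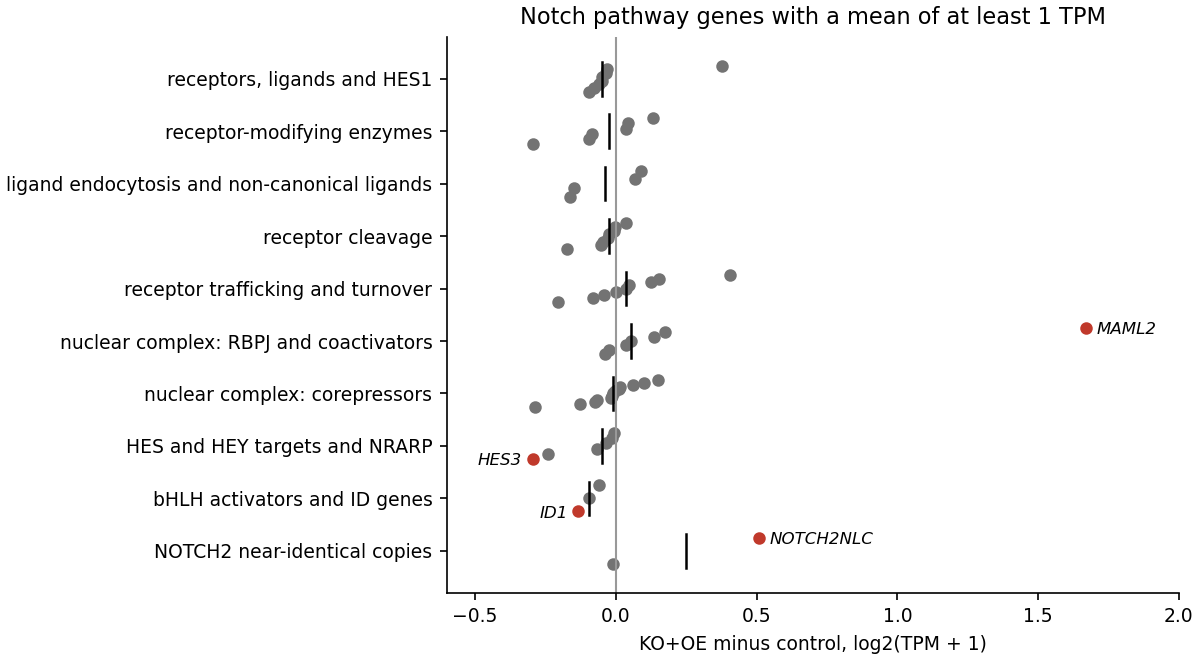
KO+OE minus control on the log2(TPM + 1) scale for the 8 tested receptors, ligands and HES1 (top) and the 58 tested genes of 9 pathway lists. Points are genes, black lines are list medians, and red marks the 4 genes at an unadjusted p under 0.05, of which MAML2 lies farthest out at 1.67 and none passed after adjustment.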

How the data were processed

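Total RNA of 4 H9 libraries was enriched for poly(A)+ RNA with oligo(dT) beads and sequenced in pairs on a NovaSeq. The submitters' processing notes name HISAT2, featureCounts, Subread, DESeq2 and hg38, without versions or roles. The authors deposited 1 table of gene values whose header gives no unit. The deposited values were read as TPM, since each library sums to between 986853 and 987078, and they are rounded to 2 decimals. No counts are given, so depth is unknown and no counting interval was made. No column of per-sample values was left unused (0 columns).

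Values were put on the log2(TPM + 1) scale, on which changes of low genes are understated. The 12319 genes whose mean over the 4 libraries reached 1 TPM were compared with limma 3.58.1 in R 4.3.3 (lmFit, eBayes with a mean-dependent prior, two-sided, group as the only term), with Benjamini-Hochberg adjustment over all genes tested and a threshold of 0.05. The fit was tested on data simulated with the spread of these libraries. At an adjusted p under 0.05 it recovered 90.7% of 2-fold changes in genes from 10 TPM upward. Under 10 TPM it recovered 13.2% of them. Runs without any change gave a mean of 0.8 false calls each. Groups and replicate numbers came from the sample titles. Value columns marked c were read as control and those marked f as KO+OE, with f taken to mean Flag. This match was inferred from the names, and the level of NUDT21 does not check it. The genes and lists were chosen with earlier results of these data known, and 1 gene of the lists is not reported here. Named genes were the receptors, ligands and HES1, NUDT21, the 2 highest of each pathway list, those at an unadjusted p under 0.05, the copies of NOTCH2, coding genes overlapping a member, and the 3 genes nearest in level to DLL3. RBPJ-motif holders, NRARP, HES2, HES7, the bHLH activators, ID2, ID4, ADAM10, ADAM17, APH1B and AC125388.1 were added after their values were seen. Positions and promoter windows are RefSeq's on GRCh38.p14, and overlapping genes were looked up in GENCODE 44. Alternatives were a pseudocount of 0.1 or 5, testing every gene above 0 in any library, a filter at 5 TPM, median-ratio rescaling, quantile normalization, a total without mitochondrially encoded genes, no mean-dependent prior, the replicate block and leaving out each library. The overlap of the groups under 2 of the rescalings was counted after seeing the data. Tables and figures used Python 3.11.15, pandas 2.3.3, numpy 2.4.6 and matplotlib 3.10.9.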

Additional observations from a re-analysis of the deposited data

How the results depend on the processing

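Depth is unknown and 2 libraries per group limit what could be seen, so a difference that missed the threshold is not shown to be absent. Over 13 alternatives, none of the receptors, ligands or HES1 that were fitted passed an adjusted p under 0.05. At an unadjusted p under 0.05 their number was 0, and it ranged from 0 to 1 when 1 library was left out (1, DLL1, without KO+OE replicate 2). The number of pathway genes at that threshold was 4. With every library kept, it fell to 2 with a filter at 5 TPM, where fewer genes were tested. It rose to 6 without the filter, where more genes were tested. With 1 library left out, log2 differences ranged from -0.087 to 0.015 for DLL3, from -0.15 to 0.050 for JAG1, from -0.12 to 0.060 for NOTCH2 and from -0.012 to 0.066 for NUDT21, and so changed sign (DLL3, JAG1 and NOTCH2 without KO+OE replicate 2, JAG1 also without control replicate 1 at 0.016, and NUDT21 without control replicate 2). NOTCH1, NOTCH3 and HES1 stayed negative under each alternative. JAG2 stayed negative and DLL1 positive under each but the filter at 5 TPM, which left both out. The median of the receptors, ligands and HES1 ranged from -0.075 to -0.012 when 1 library was left out.

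Mitochondrially encoded genes took 21.0% and 21.1% of the control and 21.6% and 22.1% of the KO+OE libraries. Rescaling by median ratios moved the median difference of all genes tested from -0.01 to -0.0005, and left NOTCH1 and HES1, 2 in place of 3 genes, lower without overlap, with DLL1 still higher. The share of higher genes among all genes separated between the groups was 42.5% as deposited, 49.8% by median ratios and 50.5% without mitochondrial genes. Same-numbered libraries did not deviate together (correlation -0.0485), so the numbers were not taken as pairs. The replicate block cannot move a difference in this balanced design, so the median of the receptors, ligands and HES1 is -0.05 there by construction. With it, 0 of them and 3 pathway genes were at an unadjusted p under 0.05.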
